A study of Mus musculus with 9 samples.

Results

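The genes described here are 29 mouse genes of cholesterol and fatty acid synthesis, taken by symbol from a list of pathway members out of the 40213 gene symbols in the count files. All 29 had enough reads to be tested, among 14413 genes tested in all. They comprised 7 genes of the mevalonate steps, 11 genes of the steps from squalene synthesis to cholesterol, 6 genes of fatty acid synthesis and 5 genes of sterol sensing and transport. RNA had been prepared from primary calvarial pre-osteoblasts, the bone-forming precursor cells of the skull, which were isolated by enzyme digestion from 3-day-old wild-type pups of ICR mice and cultured under normoxia. All cells received osteogenic medium with 50 μg/ml L-AA (ascorbic acid) and 5 mM β-Gp (β-glycerophosphate), were infected with an adenovirus on day 3 and were harvested on day 6. The groups carried a control adenovirus (Ad-C), an adenovirus for overexpression of Hif1a (Ad-Hif1a) or one for overexpression of Hif2a (Ad-Hif2a), with 3 libraries per group. The Ad-C cells were thus infected as well, and no uninfected library was measured. The promoter in the vectors and the virus dose used for sequencing are not given in the sources used here. The study defines n as a count of separate experiments or animals, and the labels name no culture or litter for each library, so the p-values measure the spread between these libraries.

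Cells build cholesterol from acetyl-CoA through mevalonate, isoprenoid units, squalene and lanosterol, and they build fatty acids from the same acetyl-CoA through malonyl-CoA, chain extension, elongation and desaturation. The SREBP transcription factors, encoded by Srebf1 and Srebf2, switch on most genes of both routes when sterols in the endoplasmic reticulum are low, and the INSIG proteins hold them back when sterols are plentiful. HIF-1α and HIF-2α (the product of Epas1) are the oxygen-labile subunits of the hypoxia-inducible factor, and several enzymes of these routes, among them squalene epoxidase, lanosterol demethylase and the stearoyl-CoA desaturases, use molecular oxygen as a substrate.

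Each library held between 14372589 and 18623403 counts in genes. Levels are given as CPM (counts per 1e6 counts of the library) scaled by TMM factors and are not divided by transcript length, so they are compared between libraries and not between genes. The labels held for the targeted genes, since Hif1a rose by 3.25 on the log2 scale with Ad-Hif1a and Epas1 by 5.16 with Ad-Hif2a, and each also rose in the other group (Epas1 by 3.52 on the log2 scale with Ad-Hif1a, Hif1a 2.83-fold with Ad-Hif2a). The Ad-C libraries lay close together, with correlations of log2 CPM between them of at least 0.989. Ad-Hif2a replicate 3 was the library least like its group, at 0.933 and 0.948 with the other two, which were at 0.980 with each other. In the Ad-Hif1a group replicates 1 and 3 were the least alike, at 0.969, against 0.983 and 0.986 for the other pairs. Ad-Hif1a replicate 1 and Ad-Hif2a replicate 3 had the lowest shares of mitochondrial transcripts, 2.84% and 2.71% of counts, against 3.56% to 6.17% in the other 7. They are called below the libraries that stood apart, and they were picked from these same data. Ad-Hif1a replicate 1 is the less clear of them, since the mitochondrial share rose stepwise over replicates 1 to 3 of its group (2.84%, 3.56% and 5.33%). Both also had the lowest summed CPM of Hif1a and Epas1 in their groups. These sums were 1648 against 2416 and 3003 with Ad-Hif1a, and 1270 against 2570 and 2765 with Ad-Hif2a. Leaving both out thus also removes the library with the least of these transcripts from each HIF group. The main counts of genes are also given without both libraries, when each HIF group has 2.

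Lipid synthesis genes were mostly at lower levels with either HIF vector than with Ad-C, and few of them passed the test. With Ad-Hif2a, Elovl6, Idi1, Hmgcs1 and Stard4 fell and Ebp rose. With Ad-Hif1a, Elovl6 alone passed, and it fell. The test was edgeR's quasi-likelihood test with Benjamini-Hochberg adjustment over all 14413 genes and a threshold of 0.05. With Ad-Hif1a, 1 of the 29 genes fell and 0 rose (Ebp rose with DESeq2 and without the replicate number as a term), while 5.22% of all genes tested fell and 6.04% rose. With Ad-Hif2a, 4 of the 29 fell and 1 rose, against 7.72% and 7.87% of all genes (15.6% in either direction, and 11.3% with Ad-Hif1a), so the share that fell, 13.8%, lay above the background and rested on 4 genes. The log2 fold change was negative for 22 of the 29 genes in each comparison, with a median of -0.18 for Ad-Hif1a and -0.35 for Ad-Hif2a, whereas the median over all genes tested was 0.01 in both. At an unadjusted p under 0.05 there were 3 of the 29 genes with Ad-Hif1a and 10 with Ad-Hif2a. The same cut held 3771 and 4889 of all 14413 genes, so these counts do not set the 29 genes apart. In the fit without both libraries that stood apart, 24 and 27 genes had negative log2 fold changes, and the medians were -0.26 and -0.34. There 11 and 18 of the 29 genes had an unadjusted p under 0.05, beside 5617 and 5637 of all 14559 genes tested. The 3 Ad-C libraries are shared by these 2 comparisons.

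**Figure D1:**
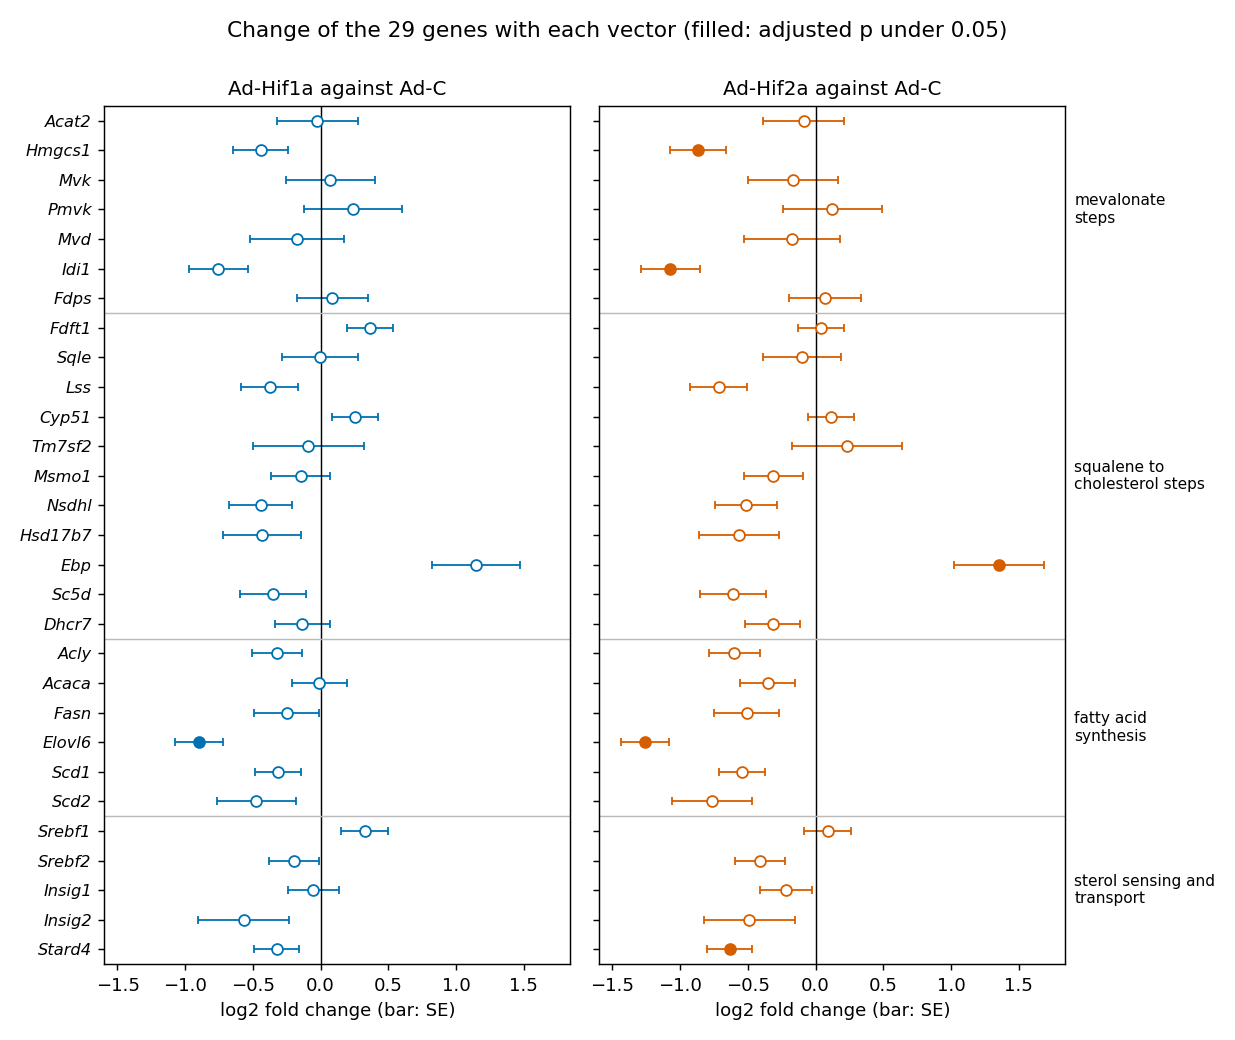
Log2 fold change (x axis) of the 29 genes (y axis, grouped by role) with Ad-Hif1a and with Ad-Hif2a against Ad-C, as estimate and SE from edgeR over 3 libraries per group; filled points passed the adjusted p of 0.05. Most points lie left of 0 in both panels, Elovl6 is filled in both, and Ebp is the one far to the right, at 1.15 and 1.36.

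These counts moved with single libraries, and so did the shares over all genes. With Ad-Hif1a replicate 1 and with it Ad-Hif2a replicate 3 left out, the genes that fell with Ad-Hif2a numbered 13 of 29, with 1 that rose, while 14.3% of the genes tested in that fit fell and 14.4% rose. The 13 were Elovl6, Hmgcs1, Idi1 and Stard4 together with Acat2, Mvk, Mvd, Sqle, Lss, Msmo1, Acly, Scd1 and Scd2. By role they were 5 mevalonate genes, 3 genes from squalene to cholesterol, 4 fatty acid genes and 1 gene of sterol transport. In the same fit Elovl6 and Idi1 fell and Ebp rose with Ad-Hif1a, where 13.4% of all genes fell and 14.2% rose. Without Ad-Hif2a replicate 3 alone, 8 genes fell and 2 rose with Ad-Hif1a, beside 18.3% and 18.1% of all genes, and 8 fell and 1 rose with Ad-Hif2a, beside 11.5% and 11.1%. Without Ad-Hif2a replicate 2, 8 genes fell with Ad-Hif2a and 2 with Ad-Hif1a (6.48% and 4.35% of all genes). Without Ad-Hif1a replicate 3, 6 and 3 fell (10.9% and 7.13%). Leaving out any 1 of the 3 Ad-C libraries left 0 genes that fell with Ad-Hif1a (0.937% to 1.64% of all genes) and 1, Elovl6, with Ad-Hif2a (1.79% to 2.93%). Without Ad-Hif1a replicate 1 or replicate 2, 0 fell with Ad-Hif1a (1.82% and 0.922% of all genes), and 3 and 2, respectively, fell with Ad-Hif2a (6.25% and 4.24%). Without Ad-Hif2a replicate 1, 1 gene fell with Ad-Hif2a (2.89%).

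Seen as groups of libraries, 13 of the 29 genes had all 3 Ad-Hif1a libraries below all 3 Ad-C libraries and 4 had all 3 above, against 25.9% and 24.5% of all genes tested. With Ad-Hif2a, 12 genes lay wholly below and 1, Ebp, wholly above, against 25.5% and 24.0%. The share of genes wholly below was thus 44.8% and 41.4%, and the share wholly above 13.8% and 3.45%. Without both libraries that stood apart, when a HIF group has 2 libraries, 15 genes lay wholly below and 5 wholly above with Ad-Hif1a (29.9% and 28.1% of all genes), and 19 and 2 with Ad-Hif2a (30.5% and 30.1%). The CPM of the 29 genes summed to 4001 to 4028 in the Ad-C libraries and to 3240 to 3610 in the Ad-Hif1a libraries. The Ad-Hif2a libraries had 2529 to 3615, so neither HIF group overlapped Ad-C in this sum. Such a sum is weighted to abundant genes, and Scd2 alone held 970 to 1050 CPM in Ad-C libraries. Sums of the mevalonate genes and of the fatty acid genes also lay wholly below Ad-C in both HIF groups. For squalene to cholesterol both HIF groups overlapped Ad-C (932 to 996 CPM), at 943 to 999 and 726 to 973 CPM, respectively. The sensing and transport genes overlapped it with Ad-Hif1a only (338 to 380 CPM, against 378 to 392). In a whole culture, fewer cells of a type and less RNA per cell cannot be told apart.

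The promoters of the genes that the result turns on are shown because SREBP and HIF act through short DNA elements there. The sequences are from RefSeq (GRCm38.p6), each the 250 bases upstream of the annotated start, and capitals mark matches on either strand to the sterol regulatory element (TCACNCCAC), the NF-Y box (CCAAT) and the hypoxia response core (ACGTG or GCGTG). They lie at chr13:119690101-119690350 on the plus strand for Hmgcs1, chr13:8885356-8885605 on the plus strand for Idi1, chr3:129532136-129532385 on the plus strand for Elovl6 and chrX:8193513-8193762 on the minus strand for Ebp.
Hmgcs1: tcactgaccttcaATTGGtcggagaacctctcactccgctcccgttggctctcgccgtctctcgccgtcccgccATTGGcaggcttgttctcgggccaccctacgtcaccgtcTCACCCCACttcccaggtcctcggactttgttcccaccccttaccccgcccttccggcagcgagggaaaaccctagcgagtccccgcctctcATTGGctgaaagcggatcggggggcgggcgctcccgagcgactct
Idi1: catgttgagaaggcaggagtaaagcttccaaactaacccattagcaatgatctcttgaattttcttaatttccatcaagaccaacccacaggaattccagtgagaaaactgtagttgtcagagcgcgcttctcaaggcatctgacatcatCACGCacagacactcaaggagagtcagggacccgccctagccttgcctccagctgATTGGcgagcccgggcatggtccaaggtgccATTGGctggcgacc
Elovl6: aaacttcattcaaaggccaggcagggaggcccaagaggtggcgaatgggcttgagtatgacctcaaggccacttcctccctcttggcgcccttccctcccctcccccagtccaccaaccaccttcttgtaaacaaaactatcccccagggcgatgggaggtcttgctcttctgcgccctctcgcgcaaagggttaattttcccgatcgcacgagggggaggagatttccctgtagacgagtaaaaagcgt
Ebp: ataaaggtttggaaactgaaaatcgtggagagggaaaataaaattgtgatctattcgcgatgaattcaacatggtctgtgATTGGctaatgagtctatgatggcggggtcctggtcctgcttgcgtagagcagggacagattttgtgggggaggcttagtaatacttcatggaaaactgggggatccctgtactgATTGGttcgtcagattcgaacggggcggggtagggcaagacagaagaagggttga
The Hmgcs1 sequence held the sterol regulatory element, starting 137 bases upstream, and 3 NF-Y boxes. Idi1 and Ebp each held 2 NF-Y boxes, and Idi1 held 1 hypoxia response core, at 100 bases upstream. Elovl6 held no NF-Y box, and its one upstream hypoxia response core, at 4 bases, runs past the end of the printed stretch and is not capitalised. Windows running from 250 bases before to 50 bases after the start matched 23 of the 29 genes by symbol, in 30 windows. Fdps, Fdft1, Sqle, Scd1, Scd2 and Stard4 had no entry. The NF-Y box was found in 21 of the 30 windows (70.0%) and in 37.4% of all 32851 windows in the table. The sterol regulatory element as written was found in 1 window (3.33%, against 1.24%), the hypoxia response core in 17 (56.7%, against 43.8%) and the E-box (CACGTG), which contains ACGTG, in 4 (13.3%, against 7.15%). These are letter matches and say nothing of binding.

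Of the 7 mevalonate genes, Hmgcs1 and Idi1 fell with Ad-Hif2a and none rose, and the list's median log2 fold change was -0.17, against -0.02 with Ad-Hif1a, where 0 of 7 passed, 1 had an unadjusted p under 0.05 and DESeq2 called 1, Idi1. Hmgcs1, the cytosolic enzyme that joins acetyl-CoA and acetoacetyl-CoA into HMG-CoA, stood at 322, 333 and 305 CPM in the Ad-C libraries. It stood at 200, 246 and 262 CPM with Ad-Hif1a and at 154, 244 and 139 CPM with Ad-Hif2a. All 6 HIF libraries were below every Ad-C library, and Ad-Hif2a replicate 2 lay within the Ad-Hif1a range. Hmgcs1 fell with Ad-Hif2a by 0.87 ± 0.21 (SE) on the log2 scale, a change of -45.3% (adjusted p = 0.0304). With Ad-Hif1a the log2 fold change was -0.44 ± 0.20 (adjusted p = 0.222). The Ad-Hif2a call was lost without any 1 of the Ad-C libraries, Ad-Hif1a replicate 2 or Ad-Hif2a replicate 1, with adjusted p of 0.0644 to 0.185 and log2 fold changes of -0.99 to -0.76.

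Idi1, the isomerase that makes the reactive isoprenoid unit dimethylallyl diphosphate, stood at 108, 115 and 97.8 CPM with Ad-C. It was at 54.8, 65.6 and 70.0 CPM with Ad-Hif1a and at 40.4, 76.3 and 41.4 CPM with Ad-Hif2a. Neither HIF group reached the Ad-C range, and Ad-Hif2a replicate 2 was again the highest of its group. Idi1 fell with Ad-Hif2a by 1.07 ± 0.22 (SE) on the log2 scale, a change of -52.4% (adjusted p = 0.0183). The value with Ad-Hif1a was -0.76 ± 0.22 (adjusted p = 0.0721), and this comparison passed without both libraries that stood apart (-0.75 ± 0.19, adjusted p = 0.0135). The Ad-Hif2a call was lost without any 1 of the Ad-C libraries or Ad-Hif2a replicate 1, with adjusted p of 0.0546 to 0.123. In the annotation, 25.3% of the 50-base words of Idi1 transcripts also occur in other genes, of which the processed pseudogene Gm13502 holds 17.7%, and 11.6% of those of Hmgcs1. Exons of Idi1 overlap Gm48574 over 323 bases and those of Hmgcs1 overlap Gm48342 over 557 bases, both on the opposite strand. Part of the reads of Idi1 and Hmgcs1 could thus be assigned elsewhere.

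The other 5 mevalonate genes, Acat2, Mvk, Pmvk, Mvd and Fdps, overlapped Ad-C in both HIF groups. They encode the thiolase that opens the route, the kinases and decarboxylase that turn mevalonate into isopentenyl diphosphate, and farnesyl diphosphate synthase. Their log2 fold changes ran from -0.18 to 0.24 with Ad-Hif1a and from -0.17 to 0.12 with Ad-Hif2a. These small mean differences covered a wide spread within the Ad-Hif2a group. Mvd stood at 14.1, 21.5 and 39.5 CPM there, against 29.04, 25.0 and 27.6 CPM with Ad-C, and Pmvk at 17.7, 21.8 and 40.3 CPM, against 24.5, 23.9 and 23.7 CPM. In both genes Ad-Hif2a replicates 1 and 2 lay below Ad-C and replicate 3 above it. Without both libraries that stood apart, Mvd fell with Ad-Hif2a by 0.65 ± 0.18, Mvk by 0.58 ± 0.15 and Acat2 by 0.48 ± 0.14 on the log2 scale (adjusted p = 0.0128, 0.00846 and 0.0131), whereas Pmvk and Fdps had adjusted p of 0.120 and 0.179. Acat2 shares 39.1% of its 50-base words with Acat3 and Tcp1, and Fdps 26.2% with other genes, among them one that overlaps its exons on the same strand.

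**Figure D2:**
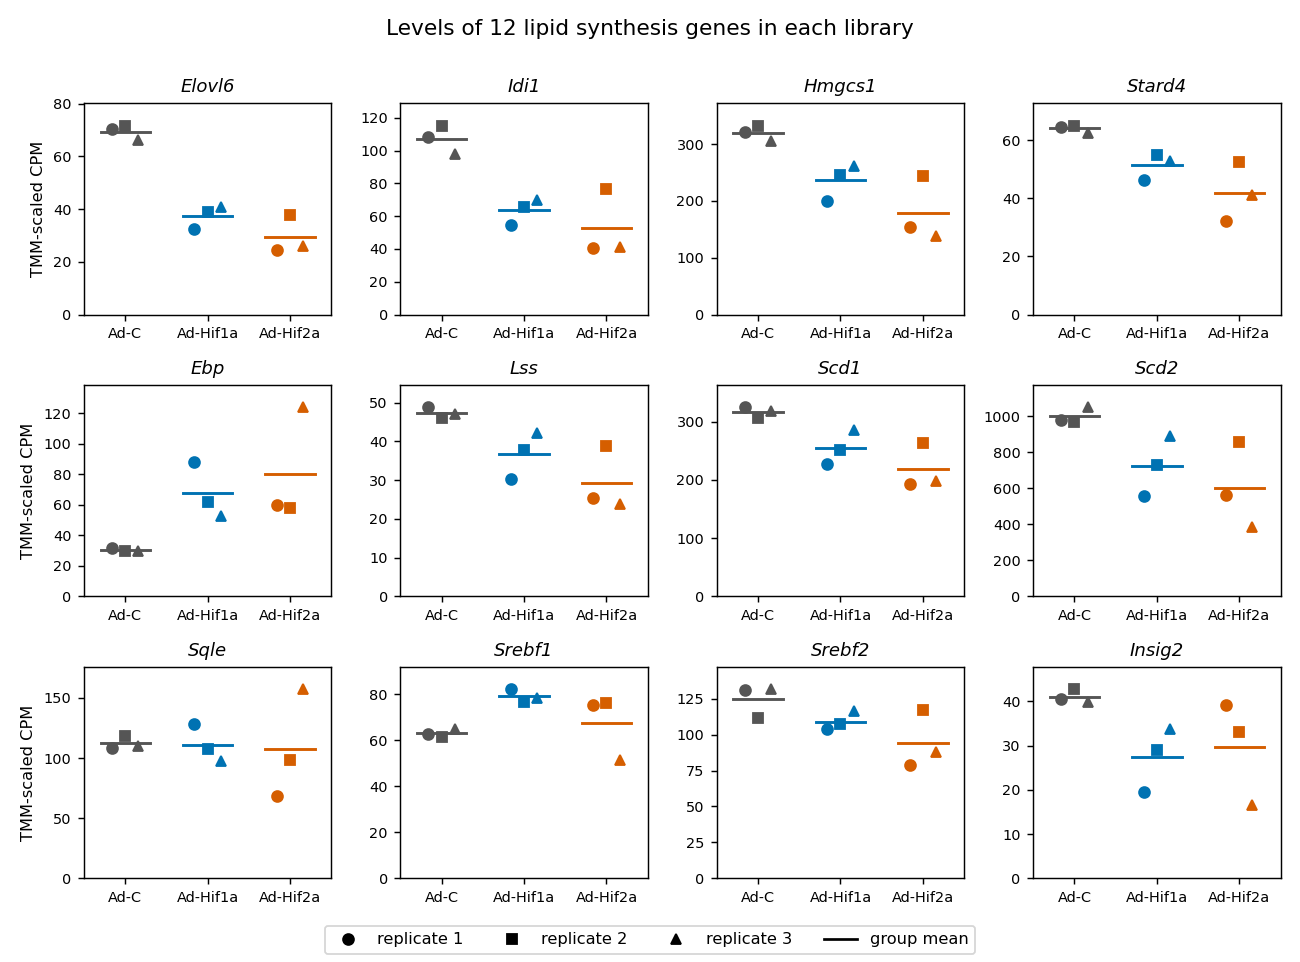
TMM-scaled CPM (y axis, from 0) of 12 of the genes in each library, with symbols for the replicate number and a line at the mean of the 3 libraries of each group. In Elovl6, Idi1, Hmgcs1, Stard4 and Lss every HIF library lies below every Ad-C library, in Ebp every HIF library lies above, and Ad-Hif2a replicate 2 is the Ad-Hif2a library nearest to Ad-C in these 6 genes.

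Of the 11 genes from squalene to cholesterol, Ebp rose with Ad-Hif2a and 0 fell, and 0 passed with Ad-Hif1a, with 3 and 1 genes at an unadjusted p under 0.05 in the respective comparisons. With DESeq2, and also without the replicate number as a term, Ebp rose in both comparisons and Lss fell with Ad-Hif2a. Ebp, the sterol isomerase also known as emopamil-binding protein, stood at 31.7, 30.1 and 29.7 CPM with Ad-C. It was at 87.9, 62.0 and 52.7 CPM with Ad-Hif1a and at 59.7, 57.6 and 123.7 CPM with Ad-Hif2a. Every HIF library was above every Ad-C library, and the highest values of both HIF groups were those of the libraries that stood apart. The rise with Ad-Hif2a was 1.36 ± 0.33 (SE) on the log2 scale, or 2.56-fold (adjusted p = 0.0342). With Ad-Hif1a the log2 fold change was 1.15 ± 0.33 (adjusted p = 0.0693, or 0.0292 without the replicate term). Without Ad-Hif2a replicate 3 the Ad-Hif2a value was 0.85 ± 0.16 (adjusted p = 0.00305), and without both libraries it was 0.90 ± 0.13, beside 0.95 ± 0.13 with Ad-Hif1a, which then passed (adjusted p = 5.6e-05 and 3.65e-05). The Ad-Hif2a call was lost without any 1 of the Ad-C libraries, Ad-Hif1a replicate 2 or Ad-Hif2a replicate 2, with adjusted p of 0.0540 to 0.188. No 50-base word of Ebp occurs in another annotated gene.

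Of the rest of this branch, 5 genes lay wholly below Ad-C in at least one HIF group, and none of the 10 passed. Lss, lanosterol synthase, had 47.3 ± 1.33 CPM (SD, n = 3) with Ad-C, 36.7 ± 5.94 with Ad-Hif1a and 29.3 ± 8.27 with Ad-Hif2a. Both HIF groups lay wholly below Ad-C, and the log2 fold changes were -0.38 ± 0.21 (SE) and -0.72 ± 0.21, with adjusted p of 0.302 and 0.0622. With Ad-Hif2a it fell without the replicate term (adjusted p = 0.0357) and without both libraries that stood apart (-0.54 ± 0.16, adjusted p = 0.0204). Nsdhl and Hsd17b7, which act in removing methyl groups from the sterol ring, and Sc5d, a sterol desaturase, also lay wholly below Ad-C in both groups, with log2 fold changes of -0.44, -0.43 and -0.35 with Ad-Hif1a and of -0.51, -0.57 and -0.61 with Ad-Hif2a. None of these passed, with adjusted p from 0.131 to 0.211 in the Ad-Hif2a comparison. Their Ad-Hif2a values were -0.30, -0.21 and -0.33 without both libraries that stood apart. Dhcr7, which catalyses a last reduction to cholesterol, lay wholly below Ad-C with Ad-Hif1a only (-0.14 ± 0.20) and had one Ad-Hif2a library above it.

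Sqle, squalene epoxidase and a rate-controlling step, had nearly equal means, 112.4 ± 5.40 CPM (SD, n = 3) with Ad-C, 111.1 ± 15.4 with Ad-Hif1a and 107.8 ± 45.2 with Ad-Hif2a. The 3 Ad-Hif2a values were 68.2, 98.3 and 157.1 CPM, of which replicates 1 and 2 lay below and replicate 3 above the Ad-C range. Msmo1, the methylsterol monooxygenase, had log2 fold changes of -0.15 and -0.31. Without both libraries that stood apart, Sqle fell with Ad-Hif2a by 0.45 ± 0.14 and Msmo1 by 0.54 ± 0.14 on the log2 scale (adjusted p = 0.0189 and 0.00753). Fdft1, squalene synthase, and Cyp51, lanosterol demethylase, lay wholly above Ad-C with Ad-Hif1a and overlapped it with Ad-Hif2a. Fdft1 stood at 164, 152 and 133 CPM with Ad-Hif1a, above all of 118, 112 and 119 CPM with Ad-C, with a log2 fold change of 0.37 ± 0.17 (adjusted p = 0.223), and its value with Ad-Hif2a was 0.04 ± 0.17. Cyp51 had 0.25 ± 0.17 and 0.11 ± 0.17. In Ad-Hif2a replicate 1 both lay below every Ad-C library, Fdft1 at 99.4 CPM and Cyp51 at 147.2 CPM, against 157.6 to 185.0 CPM for Cyp51 with Ad-C. Exons of Fdft1 overlap those of Ctsb over 774 bases, and those of Cyp51 overlap Akap9 over 166 bases, on opposite strands. Whether the counting used strand is not given in the sources used here, so reads in these stretches may belong to either gene. Fdft1 shares 26.5% of its 50-base words with Ctsb and the processed pseudogene Gm6781. Tm7sf2, a sterol reductase, had few counts, with 4.41 to 14.6 CPM over the 9 libraries, and the widest SEs of the 29 genes, 0.41 and 0.40.

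All 6 fatty acid synthesis genes had negative log2 fold changes in both comparisons, with medians of -0.32 and -0.57, and 4 of the 6 lay wholly below Ad-C in each. Only Elovl6 passed, in both comparisons. Elovl6, the elongase that extends long-chain saturated and monounsaturated fatty acids, stood at 70.3, 71.7 and 66.2 CPM with Ad-C. It was at 32.6, 39.0 and 40.7 CPM with Ad-Hif1a and at 24.3, 38.0 and 26.0 CPM with Ad-Hif2a. The 6 HIF libraries lay far below the Ad-C libraries, and the HIF groups overlapped each other. Elovl6 fell by 0.90 ± 0.18 (SE) on the log2 scale, a change of -46.3%, with Ad-Hif1a (adjusted p = 0.0196) and by 1.26 ± 0.18, a change of -58.3%, with Ad-Hif2a (adjusted p = 0.00418). The fall with Ad-Hif2a passed under all 18 alternatives tried, with log2 fold changes between -1.44 and -1.14 and adjusted p up to 0.0419. The fall with Ad-Hif1a passed under 13 of 18, and was lost without any 1 of the Ad-C libraries, Ad-Hif1a replicate 1 or Ad-Hif1a replicate 2, with adjusted p of 0.0664 to 0.152.

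The stearoyl-CoA desaturases Scd1 and Scd2, which put the first double bond into saturated fatty acids, are close paralogs and were read side by side. Scd1 stood at 325, 306 and 318 CPM with Ad-C, at 227, 252 and 285 CPM with Ad-Hif1a and at 194, 263 and 198 CPM with Ad-Hif2a. Scd2 stood at 981, 970.2 and 1050.0 CPM, at 558, 729 and 889 CPM and at 565, 858 and 385 CPM in the same order. Both genes were below Ad-C in every HIF library, and the spread among HIF libraries was wider for Scd2. The log2 fold changes with Ad-Hif2a were -0.54 ± 0.17 (SE) for Scd1 and -0.77 ± 0.29 for Scd2, with adjusted p of 0.0728 (0.0325 without the replicate term) and 0.120. With Ad-Hif1a they were -0.32 ± 0.17 and -0.47 ± 0.29, with adjusted p of 0.283 and 0.344. Both passed with Ad-Hif2a without both libraries that stood apart (-0.43 ± 0.14 and -0.43 ± 0.15, adjusted p = 0.0287 and 0.0453). Scd1 shares 4.56% and Scd2 3.97% of their 50-base words with other genes, mostly of the Scd family.

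Acly, which makes cytosolic acetyl-CoA from citrate for both routes, had 213 ± 6.72 CPM (SD, n = 3) with Ad-C, 172 ± 11.8 with Ad-Hif1a and 144 ± 41.2 with Ad-Hif2a. It lay wholly below Ad-C in both groups, with log2 fold changes of -0.32 ± 0.19 (SE) and -0.60 ± 0.19 and adjusted p of 0.317 and 0.0724. Acly fell with Ad-Hif2a by 0.46 ± 0.15 (adjusted p = 0.0344) once both libraries that stood apart were left out. Fasn, fatty acid synthase, had -0.25 ± 0.24 and -0.51 ± 0.24, and Acaca, the acetyl-CoA carboxylase that makes malonyl-CoA, -0.01 ± 0.20 and -0.35 ± 0.21. Their Ad-Hif2a values without both libraries that stood apart were -0.26 and -0.17. Acaca shares 30.4% of its 50-base words with other genes, of which the processed pseudogene Gm5182 holds 29.2%. For Fasn and Acaca, Ad-Hif2a replicate 2 lay within or above the Ad-C range and replicates 1 and 3 well below it, at 134 and 122 CPM for Fasn and 60.7 and 55.9 CPM for Acaca, against 212 to 237 and 88.0 to 91.9 CPM with Ad-C.

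Of the enzymes in the set that use oxygen as a substrate, Sqle, Cyp51, Msmo1, Sc5d, Scd1 and Scd2, none passed in either comparison of the 9 libraries. With both libraries that stood apart left out, 4 of the 6, Sqle, Msmo1, Scd1 and Scd2, fell with Ad-Hif2a. In that fit 13 of all 29 genes and 14.3% of all genes tested fell. The part of oxygen use in these falls was not tested. In the 9 libraries Sc5d, Scd1 and Scd2 had unadjusted p of 0.0403, 0.0144 and 0.0341 with Ad-Hif2a, and Scd1 passed with DESeq2 and without the replicate term. An unadjusted p under 0.05 was found there for 10 of the 29 genes and for 4889 of all 14413 genes.

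Among the 5 genes of sterol sensing and transport, Stard4 fell with Ad-Hif2a and 0 passed with Ad-Hif1a, where 0 had an unadjusted p under 0.05 and DESeq2 also called 0. Stard4, a carrier that moves cholesterol between membranes, stood at 64.6, 65.0 and 62.4 CPM with Ad-C, at 46.5, 54.96 and 52.9 CPM with Ad-Hif1a and at 32.3, 52.5 and 41.0 CPM with Ad-Hif2a. All HIF libraries lay below Ad-C and the HIF groups overlapped. The fall with Ad-Hif2a was the least secure of the called changes, at -0.63 ± 0.17 (SE) with an adjusted p of 0.0436, beside -0.32 ± 0.17 (adjusted p = 0.267) with Ad-Hif1a. It passed under 9 of 18 alternatives. It was lost without any 1 of the Ad-C libraries, Ad-Hif1a replicates 1 and 2 or Ad-Hif2a replicate 1, and with no filter, a filter of 10 counts in every library or the 6 libraries fitted alone, with adjusted p of 0.0521 to 0.251.

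The regulator genes differed in sign. Srebf1, which encodes the SREBP form best known for fatty acid genes, stood at 62.7, 61.3 and 64.8 CPM with Ad-C, at 82.0, 76.4 and 78.4 CPM with Ad-Hif1a and at 75.4, 76.3 and 51.3 CPM with Ad-Hif2a. Srebf2, which encodes the form best known for cholesterol genes, stood at 130.9, 111.2 and 131.4 CPM, at 103.7, 107.1 and 116.1 CPM and at 78.6, 117.0 and 87.6 CPM. Srebf1 lay wholly above Ad-C with Ad-Hif1a, with Ad-Hif2a replicate 3 the one HIF library below Ad-C, while Srebf2 overlapped Ad-C in both groups. The log2 fold changes of Srebf1 were 0.32 ± 0.17 (SE) and 0.09 ± 0.17, and those of Srebf2 -0.20 ± 0.18 and -0.41 ± 0.19, with adjusted p of 0.282, 0.724, 0.522 and 0.165. The Ad-Hif2a value of Srebf1 was 0.30 ± 0.13 without both libraries that stood apart. The counts are summed per gene and do not separate the transcript forms of Srebf1, and SREBP activity, which depends on cleavage of the protein, was not measured.

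Insig1, itself an SREBP target, stood at 93.5, 97.6 and 94.0 CPM with Ad-C, at 86.1, 91.4 and 98.5 CPM with Ad-Hif1a and at 56.1, 92.9 and 101.9 CPM with Ad-Hif2a. Insig2 stood at 40.6, 42.7 and 39.7 CPM, at 19.5, 29.1 and 33.7 CPM and at 39.2, 33.0 and 16.6 CPM. Insig1 overlapped Ad-C in both groups, whereas every HIF library was below Ad-C for Insig2, lowest in the libraries that stood apart. The log2 fold changes were -0.05 ± 0.19 (SE) and -0.22 ± 0.19 for Insig1 and -0.57 ± 0.33 and -0.49 ± 0.34 for Insig2, with adjusted p of 0.876, 0.433, 0.326 and 0.324. Without both libraries that stood apart Insig2 had -0.35 ± 0.14 and -0.17 ± 0.14.

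Whether the HIF vectors differed from each other was tested directly, and 0 of the 29 genes and 0 of all 14413 genes passed. Hif1a and Epas1 did not pass either, at log2 fold changes of -1.75 and 1.64, although each had an unadjusted p under 0.05. The libraries of the HIF groups did not overlap for either gene. The test thus did not call even the genes that the vectors were made to overexpress. At an unadjusted p under 0.05 there were 0 of the 29 genes and 338 of all genes, and DESeq2 called 0 of the 29 and 19 of all. The log2 fold change of Ad-Hif2a against Ad-Hif1a was negative for 25 of the 29 genes with a median of -0.21, against 0.00 over all genes. It was -0.36 for Elovl6 (95% interval -0.78 to 0.05), -0.43 for Hmgcs1 (-0.91 to 0.05), -0.32 for Idi1 (-0.83 to 0.20), -0.31 for Stard4 (-0.70 to 0.08) and 0.21 for Ebp (-0.56 to 0.98). These intervals include 0, and they do not show that the vectors act alike. Fdft1 and Srebf1 had all 3 Ad-Hif2a libraries below all 3 Ad-Hif1a libraries and 0 genes had all 3 above, against 3.21% and 3.07% of all genes. Leaving out both libraries that stood apart, 0 of the 29 and 11 of all genes passed.

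**Figure D3:**
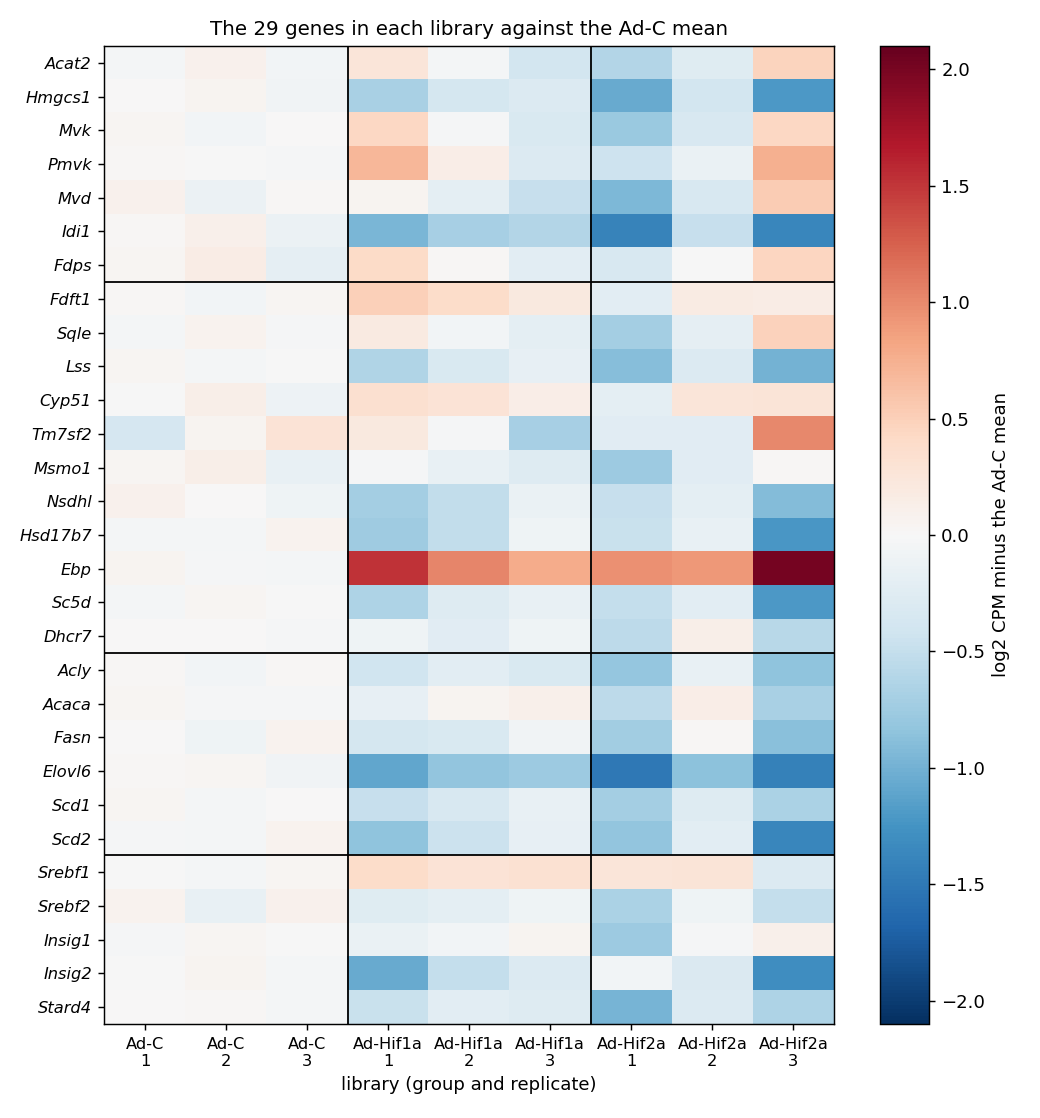
Log2 CPM of the 29 genes (rows, grouped by role) in the 9 libraries (columns) minus the mean of the Ad-C libraries, blue for lower and red for higher. The Ad-C columns are pale, Ad-Hif2a replicate 1 is blue in nearly all rows, and Ad-Hif1a replicate 1 and Ad-Hif2a replicate 3 hold both the strongest reds and strong blues.

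The Ad-Hif1a libraries had nearly equal medians, and the Ad-Hif2a libraries did not. Over the 29 genes, the median log2 difference from the Ad-C mean was -0.18, -0.21 and -0.17 in Ad-Hif1a replicates 1 to 3 and -0.66, -0.20 and -0.58 in Ad-Hif2a replicates 1 to 3. Ad-Hif2a replicate 1 was below the Ad-C mean for 27 of the 29 genes, whereas replicate 3 was below it for 17 and above it for 12. By role, the mevalonate genes had medians of -0.79, -0.34 and 0.45 in Ad-Hif2a replicates 1 to 3 and the fatty acid genes -0.78, -0.19 and -0.86. Replicate 3 was therefore the highest of its group for the former and the lowest for the latter. In Ad-Hif1a replicates 1 to 3 the mevalonate genes had medians of 0.25, -0.03 and -0.33 and the fatty acid genes -0.44, -0.32 and -0.16. The nearly equal Ad-Hif1a medians over the 29 genes thus covered opposite orders by role. Within Ad-C the 29 genes stayed between -0.35 and 0.28, and both extremes were Tm7sf2.

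The same genes were high or low in the libraries that stood apart. Set against the mean of the other 2 libraries of its group, 11 of the 29 genes were higher both in Ad-Hif1a replicate 1 and in Ad-Hif2a replicate 3, 15 were lower in both and 3 differed in sign. The higher genes tended to have shorter transcripts, although Nsdhl and Insig2, among the short ones, were lower in both libraries. All 10 genes with the longest annotated transcripts (4612 to 10050 bases) were lower in both libraries, and of the 10 shortest (1194 to 2953 bases) 7 were higher in each. Across the 29 genes, the correlation of this difference with log2 transcript length was -0.58 in Ad-Hif1a replicate 1 and -0.57 in Ad-Hif2a replicate 3, and across the 13595 tested genes with an annotated length it was -0.42 and -0.43. In Ad-Hif2a replicate 1, set against replicates 2 and 3, it was 0.32 and 0.11. All genes of a library share its RNA preparation and depth, so these values describe libraries and are not tests. The long genes include Elovl6, Scd1, Scd2, Fasn, Acaca, Lss and Stard4, and the short ones Ebp, Pmvk and Mvd. The part of transcript length in the group differences was not tested. Elovl6 fell by 0.86 ± 0.16 with Ad-Hif1a and by 1.16 ± 0.16 with Ad-Hif2a on the log2 scale without both libraries (adjusted p = 0.000618 and 2.58e-05).

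**Figure D4:**
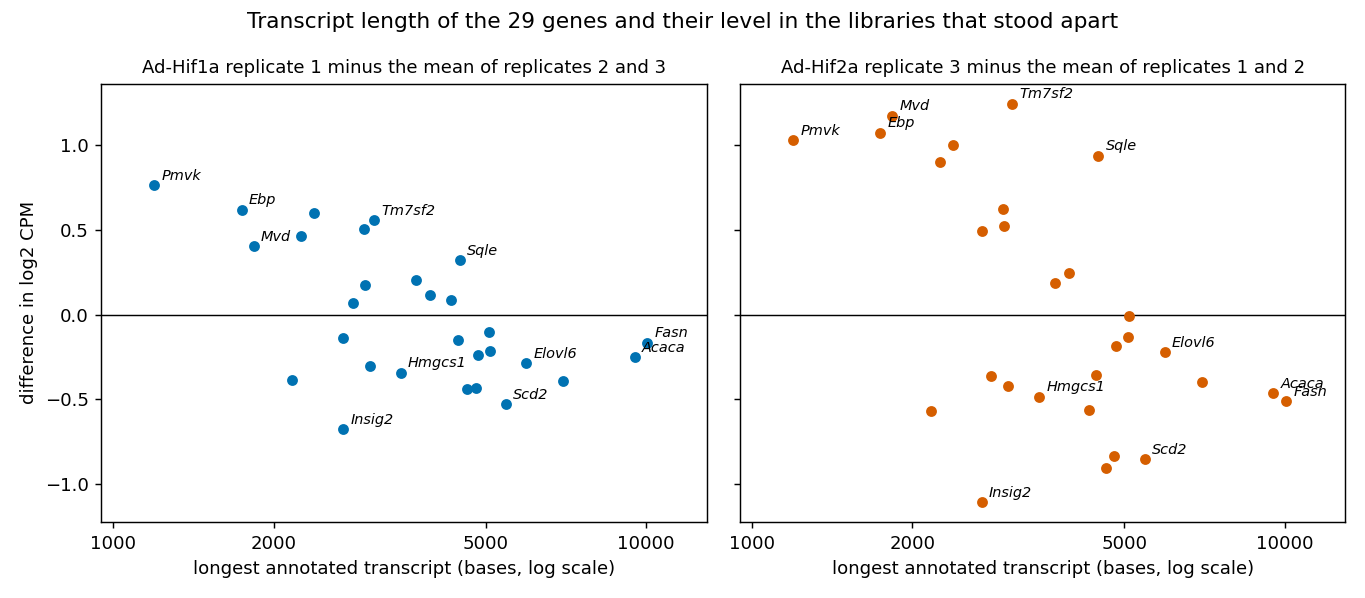
Difference in log2 CPM (y axis) between a library that stood apart and the mean of the other 2 libraries of its group, against the longest annotated transcript in bases (x axis, log scale), for the 29 genes; Ad-Hif1a replicate 1 on the left and Ad-Hif2a replicate 3 on the right. Points fall from upper left to lower right in both panels, and all genes with 4612 or more bases lie below 0.

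Genes around these routes were read from further lists. Of 17 other genes of sterol synthesis and SREBP control, 1 fell with Ad-Hif1a and 2 with Ad-Hif2a and 0 rose (DESeq2: 1 and 2 fell, 0 and 1 rose), with medians of -0.16 and -0.19. Of all genes tested, 5.22% and 7.72% fell and 6.04% and 7.87% rose (DESeq2: 8.40% and 11.8% fell, 8.74% and 12.7% rose). Soat1, which esterifies cholesterol for storage, was in both counts, at -0.58 ± 0.15 and -0.59 ± 0.15 (SE, adjusted p = 0.0469 and 0.0370). Of 22 tested genes (27 listed) of other fatty acid synthesis and chain modification, 1 fell in each comparison, Elovl4 with Ad-Hif1a and Acss2 with Ad-Hif2a, and 0 rose (DESeq2: 1 and 3 fell, 1 and 0 rose), with medians of 0.05 and 0.19. Of 10 cholesterol efflux and LXR target genes, 0 passed with Ad-Hif1a, and Mylip fell with Ad-Hif2a. In each comparison 4 had an unadjusted p under 0.05, beside 3771 and 4889 of all 14413 genes. DESeq2 called 1 efflux gene that rose and 2 that fell in each comparison. Without both libraries that stood apart, when 13.4% and 14.3% of all genes fell and 14.2% and 14.4% rose, the other sterol genes held 1 and 0 that rose and 3 and 2 that fell. In the same fit the other fatty acid genes held 2 and 3 that rose and 5 and 3 that fell, and the efflux genes 1 and 2 that rose and 3 and 2 that fell.

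Genes of fatty acid uptake, storage and oxidation had positive medians, 0.17 and 0.13 over 31 genes, of which Ad-Hif1a had 1 that rose and 1 that fell (6.04% and 5.22% of all genes) and Ad-Hif2a 4 and 2 (7.87% and 7.72%). DESeq2 gave 4 and 2 with Ad-Hif1a (8.74% and 8.40%) and 8 and 2 with Ad-Hif2a (12.7% and 11.8%). With the 2 libraries that stood apart left out, 9 rose and 3 fell in each comparison, beside 14.2% and 13.4% of all genes with Ad-Hif1a and 14.4% and 14.3% with Ad-Hif2a. Dgat2, which makes triglyceride from diglyceride, stood at 5.02, 3.98 and 6.63 CPM with Ad-C, at 20.7, 19.02 and 19.8 CPM with Ad-Hif1a and at 25.7, 21.5 and 26.8 CPM with Ad-Hif2a. The groups were far apart, and Dgat2 rose by 1.95 ± 0.18 and 2.25 ± 0.18 (SE) on the log2 scale (adjusted p = 0.00101 and 0.00045). Lpl, the lipoprotein lipase, fell in both comparisons, by 0.97 ± 0.17 and 0.79 ± 0.17 (adjusted p = 0.0132 and 0.0228).

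Markers of other cells moved between the groups. Macrophage markers summed to between 3722 and 3974 CPM in the Ad-C group, between 1563 and 1727 in the Ad-Hif1a group and between 1613 and 1907 in the Ad-Hif2a group, and 9 and 8 of the 14 fell, beside 5.22% and 7.72% of all genes. Skeletal muscle markers summed to 68.4 to 86.5, 12.1 to 14.8 and 7.49 to 10.3 CPM, with 4 of the 6 tested (14 listed) falling and 1 rising in each comparison. Of 12 adipocyte markers 5 could be tested, Cidec, Lep, Retn and Cfd had 0 counts in all 9 libraries, Adipoq had 4 counts in all, and the summed level was 31.5 to 35.4, 23.5 to 29.6 and 25.5 to 33.6 CPM. Of the 5, 2 fell with Ad-Hif1a and 2 fell and 1 rose with Ad-Hif2a. Of the osteoblast markers that bear on the labelled cell type, Col1a1, Sparc and Spp1 each stood at 3494 CPM or more in every library, and 4 and 6 of the 12 fell and 0 rose with edgeR (DESeq2: 7 and 8 fell, 0 and 1 rose). Of all genes tested, 5.22% and 7.72% fell and 6.04% and 7.87% rose with edgeR. With DESeq2, 8.40% and 11.8% fell and 8.74% and 12.7% rose. In the fit that leaves out both libraries that stood apart, 11 macrophage, 4 skeletal muscle and 7 osteoblast markers fell in each comparison. There 0, 1 and 1 of these rose, and 2 and 3 adipocyte markers fell and 1 rose. Of all genes in that fit, 13.4% and 14.3% fell and 14.2% and 14.4% rose. The part of a changed mix of cells in the levels of the lipid synthesis genes was not tested.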

How the data were processed

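Total RNA of mouse calvarial pre-osteoblasts was sequenced by the authors from 9 CORALL libraries. Per the labels, reads were handled with bcl2fastq 2.20.0.422, fastp, STAR and Salmon on GRCm39. The deposited files hold whole-number counts per gene symbol, and the strand used in counting is not given in the sources used here. No replicates were pooled. Totals ran from 14372589 to 18623403 counts per library, and p-values cover the spread between libraries only.

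The counts were tested with edgeR 4.0.16 in R 4.3.3 (filterByExpr, TMM, robust quasi-likelihood fit, group and replicate number as terms, all 9 libraries). The replicate term was kept since the study's methods name a paired test, although the values gave no sign of pairing by number. Adjustment was by Benjamini-Hochberg over 14413 genes, with a threshold of 0.05. SE is the log2 fold change divided by the root of F. Log2 CPM used a prior count of 2. Scripts were tested on simulated data. DESeq2 1.42.0, other scalings, other filters and left-out libraries were alternatives. Transcript lengths and 50-base words came from GENCODE M21 (GRCm38), and promoter windows from RefSeq (GRCm38.p6). The hypoxia response core was first set as NCGTG (80.0% of windows, against 61.7% of all) and narrowed after the results were seen to the letters the study's text gives.

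Values in every library are given for the genes past the threshold, for the pairs Srebf1 and Srebf2, Insig1 and Insig2, and Scd1 and Scd2, and for some members shown for their spread, chosen after their values were seen. The genes and lists were chosen with earlier results of these data known.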

Additional observations from a re-analysis of the deposited data

How the results depend on the processing

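No called gene changed sign under any of the 18 alternatives. Of the 29 genes, those that rose and fell are given with the shares of all genes tested in the same fit. Without the replicate block they numbered 1 and 1 with Ad-Hif1a (8.53% and 7.98%) and 1 and 6 with Ad-Hif2a (12.4% and 11.5%). In the same order, DESeq2 gave 1 and 2 (8.74% and 8.40%), and 1 and 7 (12.7% and 11.8%). No filter gave 1 and 1 (3.41% and 2.79%), and 1 and 3 (4.55% and 4.33%). A filter that asks each library for 10 counts gave 0 and 1 (4.96% and 4.75%), and 1 and 3 (6.75% and 6.86%). The 6 libraries of a comparison fitted alone gave 3 and 6 (17.0% and 16.5%), and 1 and 3 (6.19% and 5.93%). With Ad-Hif1a replicate 1 and Ad-Hif2a replicate 3 both left out, the counts were 1 and 2 (14.2% and 13.4%), and 1 and 13 (14.4% and 14.3%). With single libraries left out, 0 to 2 genes rose and 0 to 8 fell with Ad-Hif1a, and 0 to 1 rose and 1 to 8 fell with Ad-Hif2a. RLE, upper-quartile or no composition factors gave the same counts as TMM. Over all genes, the calls with Ad-Hif1a and Ad-Hif2a numbered 1624 and 2247 in the reported fit, 2379 and 3452 without the replicate block, 2470 and 3526 with DESeq2, 4706 and 1705 with 6 libraries alone, 4022 and 4173 with those libraries left out, and 441 to 5330 and 688 to 3309 with single libraries left out. The values gave no sign of pairing by replicate number, as the deviations of same-numbered libraries correlated at -0.57 to 0.10 and 0 of 9 pairs were over 0.1. Deviations of Ad-Hif1a replicate 1 and Ad-Hif2a replicate 3 correlated at 0.61. Such a shared difference can hide a pairing, so a shared culture is not excluded. Without the block Ebp passed with Ad-Hif1a and Lss and Scd1 with Ad-Hif2a (adjusted p = 0.0292, 0.0357 and 0.0325). The SEs give the limit set by 3 libraries per group, and Tm7sf2, with few counts, has the widest. The cause of these shifts was not tested.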
